A study of Mus musculus and Acomys cahirinus with 16 samples.

Results

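The nuclear genes for the subunits of the mitochondrial respiratory chain were followed in skin, untreated or after DMBA/TPA, from 2 rodents: Mus musculus, called mouse below, and Acomys cahirinus, the African spiny mouse. Members were taken by gene symbol: the Ndufa, Ndufb, Ndufc, Ndufs and Ndufv genes and Ndufab1 of complex I, Sdha to Sdhd of complex II, the Uqcr genes and Cyc1 of complex III, Cycs for cytochrome c, the Cox4 to Cox8 genes of complex IV and the Atp5 genes of the ATP synthase, complex V. Pseudogenes and the Ndufaf assembly factors were left out. The rule found 96 of the 56980 genes in the mouse count table and 88 of the 19818 in the spiny mouse table. Of these, 85 were paired between the species, 13 of them through an older symbol, and 3 in each species were the muscle isoforms of complex IV: Cox6a2, Cox7a1 and Cox8b. DMBA (7,12-dimethylbenz[a]anthracene) is a mutagen and TPA (12-O-tetradecanoylphorbol-13-acetate) a growth-promoting phorbol ester, applied to skin in sequence to raise squamous tumours. The 4 groups, which were untreated mouse, DMBA/TPA mouse, untreated spiny mouse and DMBA/TPA spiny mouse, held 4 samples each. Strain, age, doses, time of sampling and the lesion content of the treated skin were not given in the sources used here, and the series' own design text describes another experiment, so the sample labels were followed. Nothing in the labels says whether replicates were separate animals, so each p-value measures the spread between these samples only.

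The respiratory chain passes electrons from NADH through complex I, or from succinate through complex II, to ubiquinone, then through complex III and cytochrome c to oxygen at complex IV. The proton gradient built on the way drives ATP synthesis at complex V. A few core subunits are encoded in mitochondrial DNA, and the rest, described here, are encoded in the nucleus and imported. Complex IV has subunits with alternative genes: Cox6a2, Cox7a1 and Cox8b are the forms of skeletal and cardiac muscle, and Cox6a1, Cox7a2 and Cox8a are their counterparts in most other tissues. Below the dermis, mouse skin carries a thin sheet of skeletal muscle, the panniculus carnosus.

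Promoters of 4 genes of the isoform pairs are shown first because these pairs gave the largest changes, 2 of them of muscle isoforms and 2 of counterparts. Each sequence is the 250 bases before the RefSeq start on mouse build GRCm38.p6, and capitals mark the motif matches. Cox7a1 lies at chr7:30183921-30184170 on the plus strand, Cox8b at chr7:140900447-140900696 on the minus strand, Cox6a1 at chr5:115348959-115349208 on the minus strand and Cox8a at chr19:7217617-7217866 on the minus strand.
Cox7a1 (muscle isoform): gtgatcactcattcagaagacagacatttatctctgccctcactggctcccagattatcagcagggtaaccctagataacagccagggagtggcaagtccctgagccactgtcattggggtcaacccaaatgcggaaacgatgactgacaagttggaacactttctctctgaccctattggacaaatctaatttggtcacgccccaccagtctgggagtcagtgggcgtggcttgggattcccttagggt
Cox8b (muscle isoform): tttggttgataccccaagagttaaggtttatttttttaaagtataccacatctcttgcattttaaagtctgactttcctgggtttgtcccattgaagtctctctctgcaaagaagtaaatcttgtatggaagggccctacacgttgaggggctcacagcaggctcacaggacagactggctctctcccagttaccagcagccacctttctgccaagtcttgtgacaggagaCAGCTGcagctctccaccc
Cox6a1 (counterpart of Cox6a2): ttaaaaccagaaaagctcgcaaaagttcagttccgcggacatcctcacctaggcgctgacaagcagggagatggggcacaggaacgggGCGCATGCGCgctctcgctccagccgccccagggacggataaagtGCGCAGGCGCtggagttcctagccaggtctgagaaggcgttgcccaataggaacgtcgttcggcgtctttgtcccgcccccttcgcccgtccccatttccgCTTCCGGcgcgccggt
Cox8a (counterpart of Cox8b): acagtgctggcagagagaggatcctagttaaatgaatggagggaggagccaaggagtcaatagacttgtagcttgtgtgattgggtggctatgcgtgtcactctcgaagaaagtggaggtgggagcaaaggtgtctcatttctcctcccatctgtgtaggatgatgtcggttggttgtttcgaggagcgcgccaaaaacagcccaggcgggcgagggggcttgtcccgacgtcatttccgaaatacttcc

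The window of Cox6a1 held 26 CpG dinucleotides and 62.8% G plus C, that of Cox8a 11 CpG, that of Cox7a2 (not shown) 14 CpG with no motif match, that of Cox7a1 4 CpG and that of Cox8b 1 CpG. In Cox6a1 the capitals mark matches to the motif of nuclear respiratory factor 1 (searched on both strands) at 162 and 117 bases before the start, and one to the ETS motif of GABP (CCGGAAG on either strand) at 16 bases. In Cox8b they mark the E-box CAGCTG, a letter pattern of myogenic factors, at 19 bases. Over the 71 member genes matched to the promoter table, which had 76 windows, the nuclear respiratory factor 1 motif was in 14 windows (18.4%) against 3.74% of all 32851 windows of that length. The ETS motif was in 12 windows (15.8%) against 6.91% of all. The CAGCTG E-box was in 6 (7.89%) against 13%, the TATA box TATAAA on the forward strand in 2 (2.63%) against 7.59%, the YY1 motif AAGATGGC in 1 (1.32%) against 1.56%, and the estrogen-related receptor motif TCAAGGTCA in 1 (1.32%) against 0.387%. Member windows had a median of 14 CpG and 56.2% G plus C, against 6 CpG and 52.4% over all windows. These are matches of letters and say nothing of binding.

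The libraries held 19608787 to 30561256 counts. Summed epidermal keratin and differentiation markers reached 8018 to 16380 CPM in untreated and 21140 to 30210 CPM in treated mouse skin, and 13980 to 17990 and 23670 to 30450 CPM in spiny mouse skin, where CPM is the count relative to the TMM-scaled library size. A member was called where edgeR's quasi-likelihood test gave a Benjamini-Hochberg adjusted p under 0.05 over all genes tested. Of the untreated mouse libraries 2 stood apart. In replicate 2 only 9 of the 85 tested members other than the muscle isoforms were above the mean of its group's other 3 samples, with a median log2 difference of -0.585, and its summed skeletal muscle markers were 82220 CPM against 33300 to 36270 CPM in the others. In replicate 1 summed liver markers were 600.3 CPM, against 4.78 to 5.93 CPM in the other 3. The untreated spiny mouse samples were not uniform either. Summed markers of growing hair were 12600 and 13610 CPM in replicates 1 and 2, and 1274 and 3878 CPM in replicates 3 and 4.

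Of the 96 mouse members 88 passed the low-count filter, and in the spiny mouse 86 of 88 passed. The 8 left out in mouse (Ndufb4c, Ndufa11b, Ndufs6b, Ndufb11b, Cox6c2, Cox8c, Cox7b2 and a second identifier of Atp5po) had at most 4 counts in a sample, and the 2 left out in spiny mouse (Cox8c and Cox7b2) were at 0 in every library. On the FPKM scale, which divides by gene length, the tested members lay between 1.25 and 251.5 in mouse with a median of 41.8, and between 0.582 and 604.7 in spiny mouse with a median of 70.2. Atp5f1b, the catalytic beta subunit of the ATP synthase (Atp5b in the spiny mouse table), was highest in both. Cox6b2 was the lowest in both, and Cox4i2 was next to it among complex IV members. FPKM of untreated skin correlated between species with a Spearman rho of 0.4 across 83 members, which are not independent replicates. The lengths behind FPKM differ between the annotations: they were longer in mouse for 75 of 83 members, by a median ratio of 1.61.

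The muscle isoforms fell in both species. Mouse Cox8b stood at 54.1, 44.9, 51.8 and 44.8 CPM in untreated skin and at 6.04, 10.2, 13.2 and 14.96 CPM after DMBA/TPA. It was 4.39-fold lower (log2 fold change -2.13, SE 0.244, adjusted p = 0.000111). All 4 treated samples were below every untreated one, as they were for the other muscle isoforms in both species. Mouse Cox7a1 went from 30.7, 26.9, 28.0 and 21.4 CPM to 3.99, 4.88, 7.53 and 8.35 CPM (log2 fold change -2.10, SE 0.238, adjusted p = 0.000106). Mouse Cox6a2 went from 39.9, 56.1, 24.8 and 21.5 CPM to 5.88, 10.2, 12.3 and 10.9 CPM (log2 fold change -1.85, SE 0.332, adjusted p = 0.00134). Untreated replicate 2, the library with the most muscle marker RNA, had the highest Cox6a2 value, 56.1 CPM, but its Cox7a1 and Cox8b values, 26.9 and 44.9 CPM, lay within those of the other untreated samples. The 3 genes lie apart on mouse chromosome 7 (GRCm39), Cox7a1 at 29883569 to 29885503 on the plus strand, Cox6a2 at 127804607 to 127805559 and Cox8b at 140478858 to 140480359, both on the minus strand.

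In the spiny mouse Cox7a1 was at 23.8, 33.4, 34.9 and 27.9 CPM untreated and at 10.7, 22.8, 12.0 and 14.8 CPM treated (log2 fold change -0.99, SE 0.23, adjusted p = 0.00547). Spiny mouse Cox6a2 was at 31.2, 33.99, 40.8 and 35.3 CPM untreated and at 9.83, 30.3, 13.5 and 18.4 CPM treated (log2 fold change -0.97, SE 0.294, adjusted p = 0.0194). Spiny mouse Cox8b, the least abundant of the set there per length (14.3 FPKM), was at 4.93, 7.62, 7.999 and 5.76 CPM untreated and at 1.68, 4.68, 3.04 and 3.97 CPM treated (log2 fold change -0.97, SE 0.292, adjusted p = 0.0189). Treated replicate 2 was the highest treated sample for all 3, and close to the lowest untreated sample for each. All 3 stayed called under each of the 9 processing alternatives and with each of the 8 samples left out, in each species.

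The counterparts rose after treatment, except Cox7a2 in mouse, which was not called. Mouse Cox6a1 rose from 70.1, 37.7, 62.8 and 56.4 CPM to 107, 129.8, 143.5 and 113.2 CPM (log2 fold change 1.12, SE 0.188, adjusted p = 0.000909), the largest rise of any member in mouse. Mouse Cox8a rose from 100.4, 40.2, 92.5 and 84.7 CPM to 129.1, 141.2, 160.7 and 134.2 CPM (log2 fold change 0.83, SE 0.247, adjusted p = 0.0162). Groups did not overlap for either, and untreated replicate 2 was lowest for both. Mouse Cox7a2 was at 89.4, 41.4, 91.5 and 72.8 CPM untreated and at 98.7, 109.1, 107.8 and 101.3 CPM treated, a log2 fold change of 0.50 that was not called (adjusted p = 0.0721). It was called under 5 of the 9 alternatives and when untreated replicate 2 or 3 was left out.

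Spiny mouse Cox8a was nearly the same in the 4 untreated samples, at 21.8, 21.7, 21.8 and 21.9 CPM, and was 28.5, 31.98, 31.8 and 28.9 CPM after treatment (log2 fold change 0.47, SE 0.0656, adjusted p = 0.000341). This was the largest rise of any member in that species. Spiny mouse Cox6a1 rose from 77.4, 92.0, 87.5 and 77.0 CPM to 104, 103.2, 92.9 and 109.5 CPM (log2 fold change 0.29, SE 0.0785, adjusted p = 0.0108). Spiny mouse Cox7a2 rose from 53.4, 39.2, 58.2 and 46.6 CPM to 68.1, 74.8, 57.9 and 69.7 CPM (log2 fold change 0.45, SE 0.127, adjusted p = 0.0135), with an overlap of one treated with one untreated sample. The rises of spiny mouse Cox6a1 and Cox7a2 were lost when a smooth trend of level on gene length was removed first (log2 0.09 and 0.27).

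Within each pair, the share of the muscle isoform in the length-scaled counts of both isoforms does not depend on library scaling. The Cox8b share in mouse was 48.1, 65.7, 49.0 and 47.6% untreated and 7.45, 11.04, 12.3 and 16.1% treated, a mean of 52.6% ± 8.75 against 11.7% ± 3.57 (SD, n = 4 each). The Cox7a1 share in mouse fell from 40.1% ± 9.001 to 9.413% ± 2.9 and the Cox6a2 share from 38.7% ± 15.1 to 7.53% ± 1.57 (SD, n = 4 each). The spiny mouse Cox7a1 share was 42.3, 58.2, 49.5 and 49.5% untreated and 20.5, 33.3, 25.3 and 25.8% treated, a mean of 49.9% ± 6.54 against 26.2% ± 5.28. The Cox8b share fell there from 31.4% ± 4.95 to 14.2% ± 4.63 and the Cox6a2 share from 25.7% ± 2.09 to 12.3% ± 5.13 (SD, n = 4 each). The groups did not overlap in any of the 6 comparisons, each with a two-sided exact permutation p of 0.0286, the smallest that 4 against 4 samples allow, and 0.0286 after adjustment over the 6. With one sample left out the exact test has so few splits that it can barely pass the threshold: the adjusted p was 0.0571 for the spiny mouse Cox6a2 share without any one untreated sample, and 0.0286 or 0.0343 for the other shares and samples left out. The mouse shares were 31.1, 30.7 and 40.9 percentage points lower for Cox6a2, Cox7a1 and Cox8b, and the spiny mouse shares 13.4, 23.7 and 17.2 points lower.

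**Figure D1:**
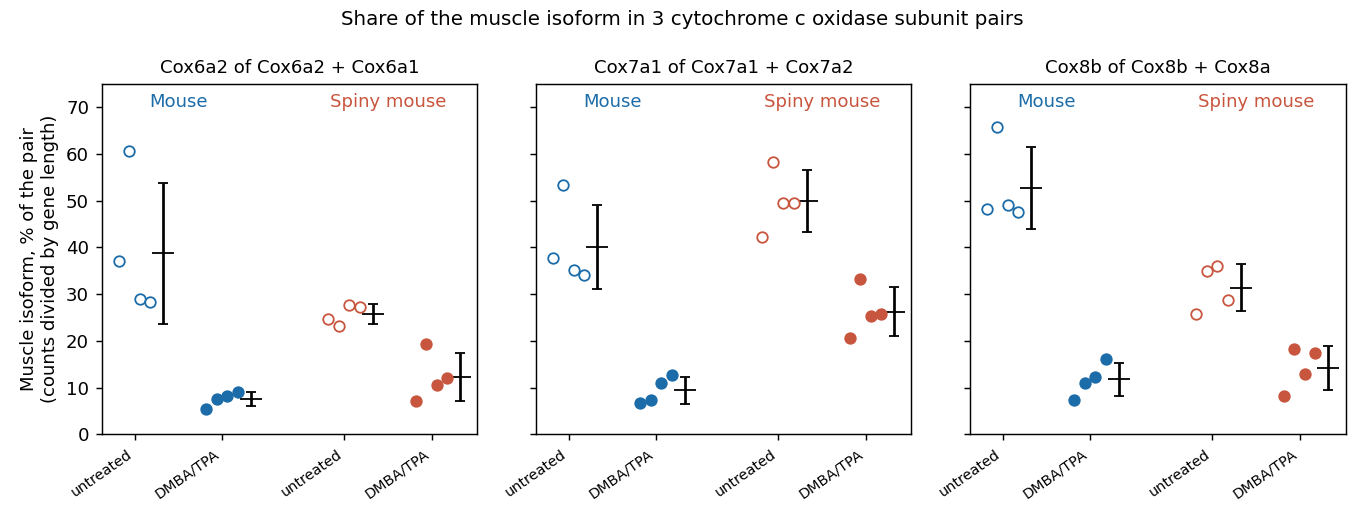
Share of the muscle isoform in each complex IV isoform pair, in percent of the length-scaled counts of the pair, for each sample of the 2 species; points within a group are replicates 1 to 4 from left to right, open for untreated and filled for DMBA/TPA, and bars give the mean and SD. In all 6 pairs the treated samples lie below the untreated ones, from a mean of 52.6% to 11.7% for mouse Cox8b and from 25.7% to 12.3% for spiny mouse Cox6a2.

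Skeletal muscle markers were lower after treatment, as the muscle isoforms were. Their summed level was 33300, 82220, 36270 and 35920 CPM in untreated mouse samples and 6359, 5809, 7430 and 7948 CPM in treated ones, and all 21 markers tested were lower (median log2 fold change -2.15). In the spiny mouse the sums were 33070, 30200, 30460 and 38970 CPM untreated and 10650, 21150, 16340 and 13580 CPM treated, again with all 21 lower (median -1.15). Treated spiny mouse replicate 2, the highest treated sample for the muscle isoforms, also had the highest treated sum. Within untreated groups the order differed. Mouse replicate 2, with the highest sum, was not the highest for Cox7a1 or Cox8b. Untreated spiny mouse replicate 4, with the highest sum there, was the highest for none of the isoforms. No marker of the list was at 0 in every library. Slow muscle markers were lower for 5 of 6 tested in mouse and 5 of 5 in spiny mouse, and their sums went from 10.6 to 20.1 CPM to 5.05 to 7.56 CPM and from 266.2 to 343.9 CPM to 77.4 to 168.7 CPM. Their part in the fall of the isoforms was not tested. In whole skin, fewer cells of a type and less RNA per cell cannot be told apart. Brown fat is another tissue rich in mitochondria. Its 3 markers summed to 23.8 to 50.2 CPM untreated and 31.2 to 36.3 CPM treated in mouse, with none called of the 2 tested, and to 103 to 144.4 and 113.6 to 142.7 CPM in spiny mouse, where Dio2 rose (log2 2.50) and Cidea fell (log2 -0.53). Its defining marker, the uncoupler Ucp1, was near 0 (mean 0 and 0.085 CPM in untreated and treated mouse skin, 0.281 and 0.275 CPM in spiny mouse skin).

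Across all members, calls with TMM scaling were fewer than across all genes. In mouse 24 of 88 (27.3%) were called, 16 higher and 8 lower, against 61.2% of all 19740 genes tested, of which 25.9% were higher and 35.3% lower. In the spiny mouse 24 of 86 (27.9%) were called, again 16 higher and 8 lower, against 55.1% of 14833 genes, with 28.2% higher and 26.9% lower. The median absolute log2 fold change of the members was 0.24 in mouse and 0.13 in spiny mouse, against 0.68 and 0.36 over all genes tested. The treated and untreated groups did not overlap for 25 members in mouse (28.4%, against 58.6% of all genes) and for 18 in spiny mouse (20.9%, against 50.9%). Members took 0.840% ± 0.103 of all counts in untreated and 0.816% ± 0.0510 in treated mouse skin, and 0.809% ± 0.0582 and 0.8288% ± 0.0359 in spiny mouse skin (SD, n = 4 each). Markers of other cells moved too. Hyperplastic epidermis markers rose for 7 of 7 tested in mouse, from sums of 675.2 to 1769 CPM to 14280 to 20070 CPM, and for 6 of 6 in spiny mouse, from 1311 to 2324 CPM to 8878 to 10280 CPM. Cycling-cell markers rose for 6 of 6 in both species, from sums of 192.7 to 271.8 CPM to 506.2 to 640.8 CPM in mouse and from 175.6 to 221.1 CPM to 527.6 to 728.5 CPM in spiny mouse. Adipocyte markers fell for 6 of 10 in mouse (sums of 606.5 to 2560 CPM to 544.7 to 1066 CPM), and in spiny mouse fell for 6 and rose for 1 of 10 (2352 to 2695 CPM to 1065 to 1613 CPM). Leukocyte markers fell for 5 of 7 in mouse and rose for 3 of 9 in spiny mouse. The part of these cells in the member changes was not tested.

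The split into higher and lower members depended on the scaling, so the direction of the set as a whole was not settled. In mouse the 16 higher and 8 lower became 27 and 7 with DESeq2's size factors, 8 and 22 by upper-quartile scaling, 6 and 25 when only library size was used, and 46 and 4 with the gene length trend removed. In spiny mouse they became 12 and 9, 7 and 13, 10 and 9, and 3 and 34. With the length trend removed, 56.8% of mouse and 43% of spiny mouse members were called, against 63.8% and 56.6% of all genes. Member genes are short: their median deposited length was 1560 bases in mouse and 769 in spiny mouse, against 3564 and 3408 over genes with a mean of at least 10 counts. All called members kept their sign under the 4 scalings (TMM, size factors, upper-quartile and library size), and 13 of 24 in mouse and 15 of 24 in spiny mouse stayed called under each. The calls that held under all 9 alternatives and with each sample left out were those of Atp5f1d, Atp5if1, Atp5mc3, Cox4i2, Cox6a1, Cox6a2, Cox7a1, Cox8a and Cox8b in mouse, and of Atp5mc2, Atp5mc3, Cox6a2, Cox7a1, Cox8b, Cyc1 and Ndufa4l2 in spiny mouse. Every other call was lost under at least one of these settings. Leaving out untreated mouse replicate 2 raised the mouse count from 24 to 39 (25 higher and 14 lower), and leaving out treated spiny mouse replicate 1 lowered that count from 24 to 15 (10 higher and 5 lower).

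**Figure D2:**
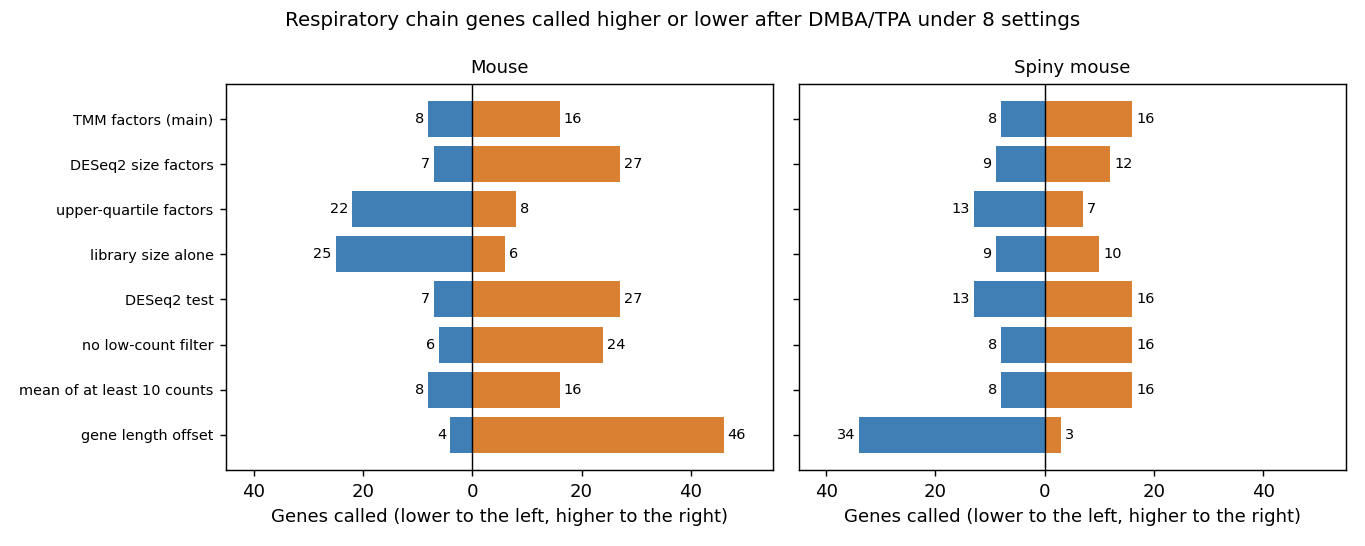
Number of members called higher (bars to the right) and lower (bars to the left) after DMBA/TPA in mouse and in spiny mouse, under the settings named on the y axis. The mouse split runs from 6 higher and 25 lower with library size alone to 46 higher and 4 lower with the gene length trend removed.

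Complex I takes electrons from NADH. Of its 40 tested members in mouse 3 rose (7.5%) and 4 fell (10%), and of 39 in spiny mouse 3 rose and 3 fell (7.69% each). Counts per complex, here and below, stand beside those of all genes. These were 25.9% higher and 35.3% lower in mouse, and 28.2% and 26.9% in spiny mouse. Ndufa4l2, a paralog of Ndufa4 known as a target of hypoxia-inducible factor, was the most abundant of these genes in mouse by FPKM (84.1) and fell most in both species. It went from 145.8, 63.8, 142 and 131.1 CPM to 75.4, 57.1, 74.8 and 47.1 CPM in mouse (log2 fold change -0.92, SE 0.262, adjusted p = 0.013). Its spiny mouse levels went from 54.2, 96.8, 90.3 and 58.9 CPM to 42.8, 50.5, 42.8 and 48.5 CPM (log2 fold change -0.70, SE 0.185, adjusted p = 0.0102). The mouse groups overlapped through untreated replicate 2 and the mouse call was lost with the length trend removed (log2 -0.50), while the spiny mouse groups did not overlap. Ndufa6, an accessory subunit, fell in both: from 71.6, 43.5, 78.1 and 70.2 CPM to 35.3, 41.2, 46.1 and 42.4 CPM in mouse (log2 -0.67) and from 29.3, 26.3, 33.2 and 21.4 CPM to 19.4, 22.5, 19.8 and 22.5 CPM in spiny mouse (log2 -0.39), with overlapping groups in both.

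Ndufa4, long listed with complex I and now counted with complex IV, was the most abundant gene of this group in the spiny mouse (229.3 FPKM) and rose most there. It was at 103.4, 99.7, 100.3 and 96.3 CPM untreated and at 131.6, 136.1, 116.6 and 129.8 CPM treated (log2 fold change 0.36, SE 0.0616, adjusted p = 0.00104), and the call was lost with the length trend removed (log2 0.14). In mouse Ndufa4 had a log2 fold change of 0.13 and was not called (adjusted p = 0.633). The largest rise of complex I in mouse was that of Ndufa12, an accessory subunit, from 69.3, 38.6, 59.6 and 55.4 CPM to 76.6, 74.2, 77.5 and 72.8 CPM (log2 0.43, SE 0.158, adjusted p = 0.0379). The Ndufa12 call was lost with upper-quartile scaling (log2 0.24), under library size alone (log2 0.20) and without untreated replicate 4 or treated replicate 1, 3 or 4. Ndufa9 rose in both species, by log2 0.34 in mouse and 0.17 in spiny mouse, with no overlap of groups in either. Among genes of the catalytic core, Ndufs8 rose in mouse (log2 0.33, adjusted p = 0.0376) and was not called in spiny mouse (log2 -0.05). Ndufs1, Ndufv1 and Ndufv2 were called in neither, with log2 fold changes of 0.03, 0.14 and 0.00 in mouse and -0.15, -0.01 and 0.02 in spiny mouse.

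Complex II, succinate dehydrogenase, had no called member of 4 in mouse. Sdhd, a membrane anchor and the most abundant of them per length in both species (63.1 and 84.3 FPKM), was at 97.1, 51.8, 94.6 and 82.0 CPM untreated and at 66.4, 72.0, 83.1 and 74.2 CPM treated in mouse (log2 -0.14, SE 0.185, adjusted p = 0.53). Spiny mouse Sdhd rose from 99.0, 118.7, 105.9 and 106.4 CPM to 128.9, 128.9, 112.9 and 120.3 CPM (log2 0.19, SE 0.0728, adjusted p = 0.0488). Its groups overlapped and the call was lost under 6 of the 9 alternatives. Sdhb, the iron-sulphur subunit, fell in the spiny mouse from 63.0, 68.2, 67.4 and 63.1 CPM to 44.9, 60.8, 55.2 and 57.6 CPM (log2 -0.26, SE 0.0925, adjusted p = 0.0378), with no overlap. The Sdhb call held under all 9 alternatives, but in only 2 of the 8 fits with 1 sample left out. In mouse Sdhb had a log2 fold change of 0.05 (adjusted p = 0.807).

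Complex III passes electrons to cytochrome c. In mouse 2 of its 9 members rose (22.2%, against 25.9% of all genes), in spiny mouse 3 (33.3%, against 28.2%), and none fell. Both shares of rises are near those of all genes. Cyc1, the cytochrome c1 subunit, rose most in both: from 117.6, 80.9, 121.9 and 115.1 CPM to 132.9, 145.1, 166.7 and 165.3 CPM in mouse (log2 0.49, SE 0.149, adjusted p = 0.0183) and from 117, 129.9, 120.8 and 122.6 CPM to 145.6, 159.4, 144.6 and 150.8 CPM in spiny mouse (log2 0.29, SE 0.0583, adjusted p = 0.00247). The groups did not overlap in either species, but the mouse call was lost with upper-quartile scaling (log2 0.29) and library size alone (log2 0.26). Uqcrb rose in mouse (log2 0.36), and Uqcrh and Uqcrq in spiny mouse (log2 0.21 and 0.22, both with overlapping groups). Uqcr11, the most abundant per length in both (138.2 and 142.5 FPKM), was not called in either (log2 0.06 and -0.07). Cycs, the somatic cytochrome c, was at 47.9, 40.2, 45.7 and 41.4 CPM untreated and at 44.6, 45.4, 56.4 and 49.7 CPM treated in mouse (log2 0.16, adjusted p = 0.211). Spiny mouse Cycs rose from 113, 111.3, 109.5 and 116.7 CPM to 131.3, 151.2, 124.8 and 122.1 CPM (log2 0.23, SE 0.0742, adjusted p = 0.0241).

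Complex IV reduces oxygen to water. Apart from the muscle isoforms, 5 of its 13 tested members rose in mouse (38.5%, against 25.9% of all genes). In spiny mouse 4 of 13 rose (30.8%, near the 28.2% of all genes), and none fell in either species. Cox6b1, a subunit on the intermembrane side and the most abundant per length in both (232.9 and 248.8 FPKM), rose in mouse from 156, 78.0, 156.5 and 142.2 CPM to 190.9, 175.6, 219.6 and 200.3 CPM (log2 0.56, SE 0.21, adjusted p = 0.0412). That call was lost with upper-quartile scaling (log2 0.37), library size alone (log2 0.34) and without untreated replicate 4 or treated replicate 1, 3 or 4. Spiny mouse Cox6b1 was at 126.7, 133.3, 116.7 and 99.5 CPM untreated and 106.9, 123.4, 110.1 and 124.7 CPM treated (log2 -0.03, adjusted p = 0.786). Cox5b rose in mouse (log2 0.51) and Cox7a2l, a factor of supercomplex assembly, in spiny mouse (log2 0.23).

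Cox4i2 is the low-oxygen paralog of Cox4i1. It rose in mouse from 0.977, 0.702, 1.25 and 1.05 CPM to 1.31, 2.15, 2.18 and 2.56 CPM (log2 1.05, SE 0.287, adjusted p = 0.0112), with no overlap and at a low level. Spiny mouse Cox4i2 was at 2.96, 3.45, 2.89 and 2.51 CPM untreated and at 2.23, 1.86, 1.43 and 2.70 CPM treated (log2 -0.53, SE 0.212, adjusted p = 0.0575). Cox4i1, the common form, had log2 fold changes of 0.02 and -0.08 in the 2 species, neither called.

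Complex V held 6 of the 16 mouse rises among its 18 tested members (33.3%, against 25.9% of all genes), and 1 fell. Atp5f1b stood at 964, 690.6, 894 and 905.7 CPM in untreated mouse skin and rose to 1282, 1291, 1263 and 1233 CPM (log2 0.55, SE 0.156, adjusted p = 0.0126). Atp5f1d, the delta subunit of the F1 stalk, rose most: from 206.6, 122, 184.8 and 194.5 CPM to 294.9, 269.5, 324 and 303 CPM (log2 0.75, SE 0.171, adjusted p = 0.0045). Both had no overlap between groups. Atp5if1, the inhibitor of the enzyme's reverse ATPase activity, rose from 33.02, 20.3, 27.7 and 27.3 CPM to 38.1, 39.9, 50.2 and 46.1 CPM (log2 0.69, SE 0.156, adjusted p = 0.00446). Atp5f1a, the alpha subunit, and Atp5me also rose (log2 0.41 and 0.47). Atp5mg, a membrane subunit, was lower, from 83.0, 73.2, 85.6 and 74.7 CPM to 47.0, 62.9, 67.6 and 67.4 CPM (log2 -0.37, SE 0.129, adjusted p = 0.032). The Atp5mg call was lost under 6 of the 9 alternatives and without any one of 6 of the 8 samples.

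In the spiny mouse 4 of 17 tested members of complex V rose (23.5%, against 28.2% of all genes) and 1 fell. Atp5mc3, a gene for the c subunit of the rotor ring (Atp5g3 in that table), rose most, from 148.1, 190.4, 154.5 and 159.7 CPM to 243.2, 224.5, 207.3 and 224.7 CPM (log2 0.46, SE 0.0895, adjusted p = 0.00208). In mouse Atp5mc3 rose as well, from 158.5, 106.3, 149.4 and 124.5 CPM to 188, 202.5, 216.3 and 193.7 CPM (log2 0.57, SE 0.14, adjusted p = 0.00658). Another gene of the same c subunit, Atp5mc2 (Atp5g2), fell in the spiny mouse from 165.3, 180.1, 184 and 163.1 CPM to 142.9, 151.8, 151.3 and 150.1 CPM (log2 -0.22, SE 0.06, adjusted p = 0.0131), and in mouse had a log2 fold change of 0.24 (adjusted p = 0.315). The most abundant, Atp5b, was at 1054, 1199, 1059 and 1062 CPM untreated and 1147, 1271, 1148 and 1124 CPM treated (log2 0.10, adjusted p = 0.347). Its groups overlapped through untreated replicate 2.

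**Figure D3:**
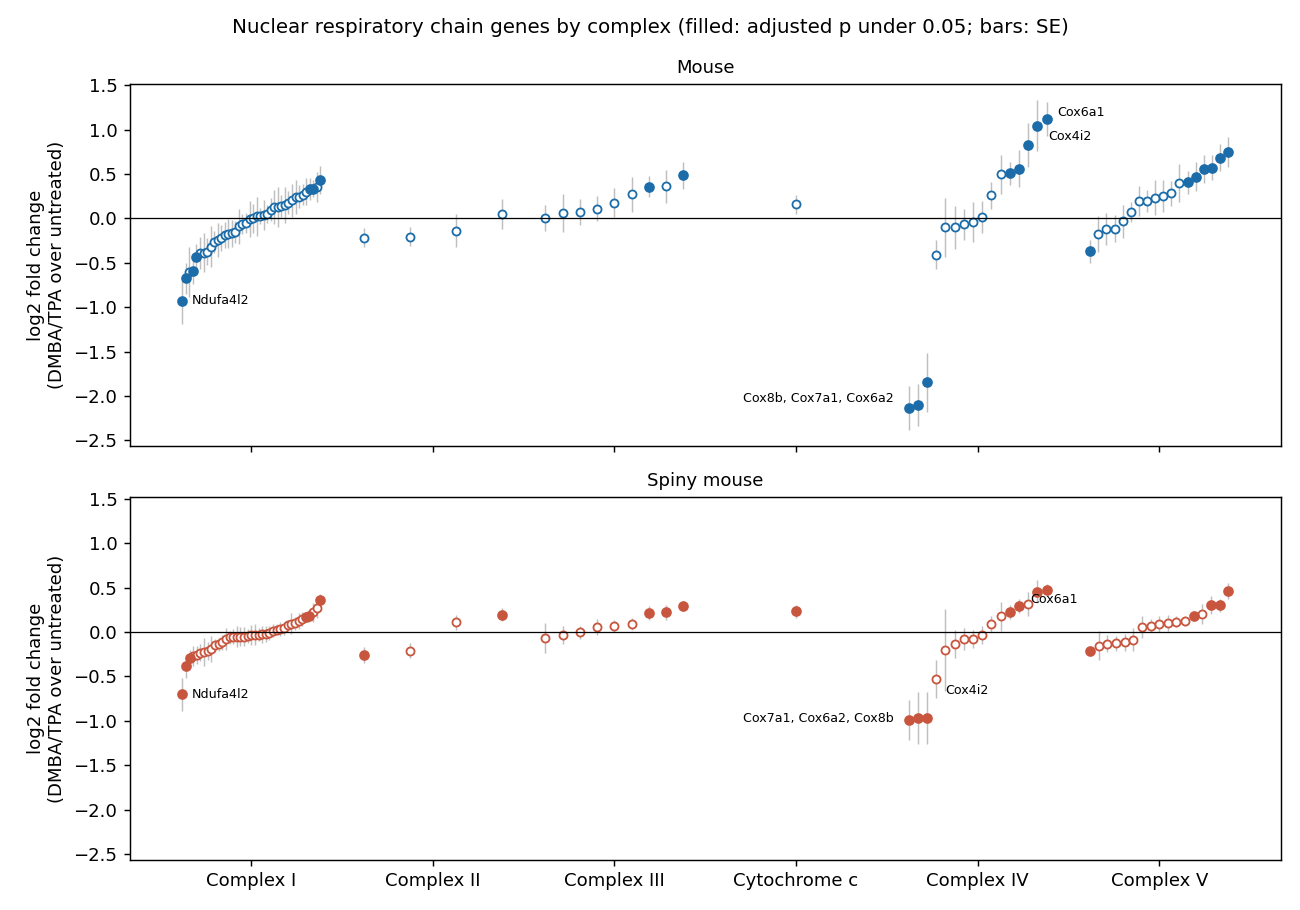
Log2 fold change, DMBA/TPA over untreated, of every tested member by complex in mouse and spiny mouse; filled points were called at an adjusted p under 0.05, and bars give the SE. The muscle isoforms stand lowest, at -2.13 to -1.85 in mouse and -0.99 to -0.97 in spiny mouse, and most other members lie within 0.5 of 0.

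Among the 83 paired members tested in both species, 10 were called in the same direction in both, none in opposite directions and 48 in neither. Those 10 are 43.5% of the 23 mouse calls and 45.5% of the 22 spiny mouse calls. Mouse Atp5if1 and spiny mouse Atp5o and Atp5md, called as well, were not paired and are not counted here. The same shares over all genes were not computed, so the overlap cannot be read as particular to these members. Higher in both were Atp5mc3, Cox6a1, Cox8a, Cyc1 and Ndufa9, and lower in both were Cox6a2, Cox7a1, Cox8b, Ndufa4l2 and Ndufa6. Whether the response differs between the species was tested directly, as the treatment effect in spiny mouse minus that in mouse. Of the 83 members 7 (8.43%) passed this test, against 46% of all 13669 genes tested. Cox4i2 (-1.58, SE 0.34, adjusted p = 0.00147) and Cox6a1 (-0.83, SE 0.211, adjusted p = 0.005) had a lower log2 change in the spiny mouse. Both passed under all 9 alternatives and with each of the 16 samples left out. Cox4i2 differed in sign (log2 1.05 in mouse and -0.53, not called, in spiny mouse), while Cox6a1 rose in both. Atp5f1d (-0.69, SE 0.211, adjusted p = 0.0139) and Atp5f1b (-0.45, SE 0.163, adjusted p = 0.0325) were lower too. Among the scalings, the first of these was lost with library size alone (-0.48), and the second with upper-quartile factors (-0.29) and library size alone (-0.24). The second was also lost without spiny mouse untreated replicate 2 or treated replicate 1, 3 or 4.

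Ndufa5, an accessory subunit of the complex I arm that faces the matrix, differed the other way (0.86, SE 0.171, adjusted p = 0.00079). It fell in mouse from 15.3, 17.6, 17.1 and 14.4 CPM to 9.14, 10.4, 12.9 and 10.2 CPM (log2 -0.60, adjusted p = 0.00467). Spiny mouse Ndufa5 was at 17.6, 14.5, 20.0 and 16.6 CPM untreated and 20.6, 22.8, 19.1 and 20.2 CPM treated (log2 0.27, adjusted p = 0.0591). Cox7a1 (1.11, SE 0.345, adjusted p = 0.0157) and Cox8b (1.17, SE 0.39, adjusted p = 0.0232) fell less in the spiny mouse, and Cox6a2 did not pass (0.87, SE 0.471, adjusted p = 0.142). For Ndufa5, Cox7a1 and Cox8b the difference was lost with the length trend removed (0.23, 0.43 and 0.43), and for Cox8b also without mouse treated replicate 2, spiny mouse untreated replicate 1 or spiny mouse treated replicate 2. With that trend removed, 50 of the 83 members passed (60.2%, against 53.8% of all genes). All 50 had a lower log2 change in the spiny mouse. With this setting the share of members was no longer below that of all genes. Beside the muscle isoforms, 15 of 20 skeletal muscle markers passed the same test, all with a smaller fall in the spiny mouse, and 11 did with DESeq2's size factors and 9 with the length trend removed. Their part in the difference of the isoforms was not tested. The hair follicle also differed between groups: summed growing-hair markers were 11.1, 2596, 39.5 and 12.4 CPM in untreated mouse and 22270 to 23990 CPM in treated mouse skin, and 1274 to 13610 and 206.1 to 3618 CPM in spiny mouse skin.

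**Figure D4:**
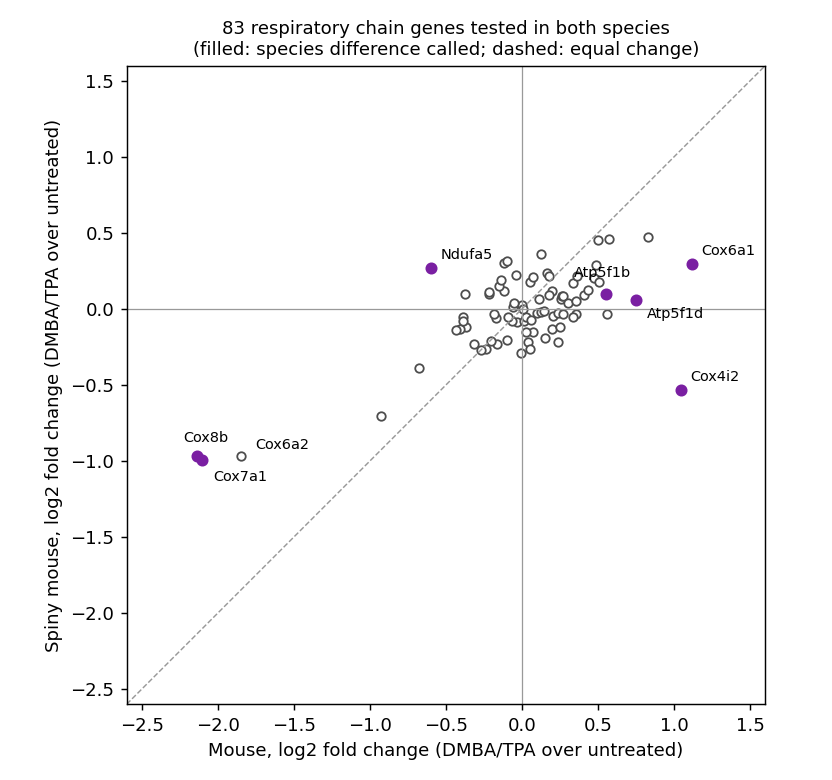
Log2 fold change, DMBA/TPA over untreated, of the 83 paired members tested in both species, mouse on the x axis and spiny mouse on the y axis. Filled points passed the test of the species difference and the dashed line marks equal change. Cox4i2, Cox6a1, Atp5f1d and Atp5f1b lie below that line, and Ndufa5, Cox7a1 and Cox8b above it.

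**Figure D5:**
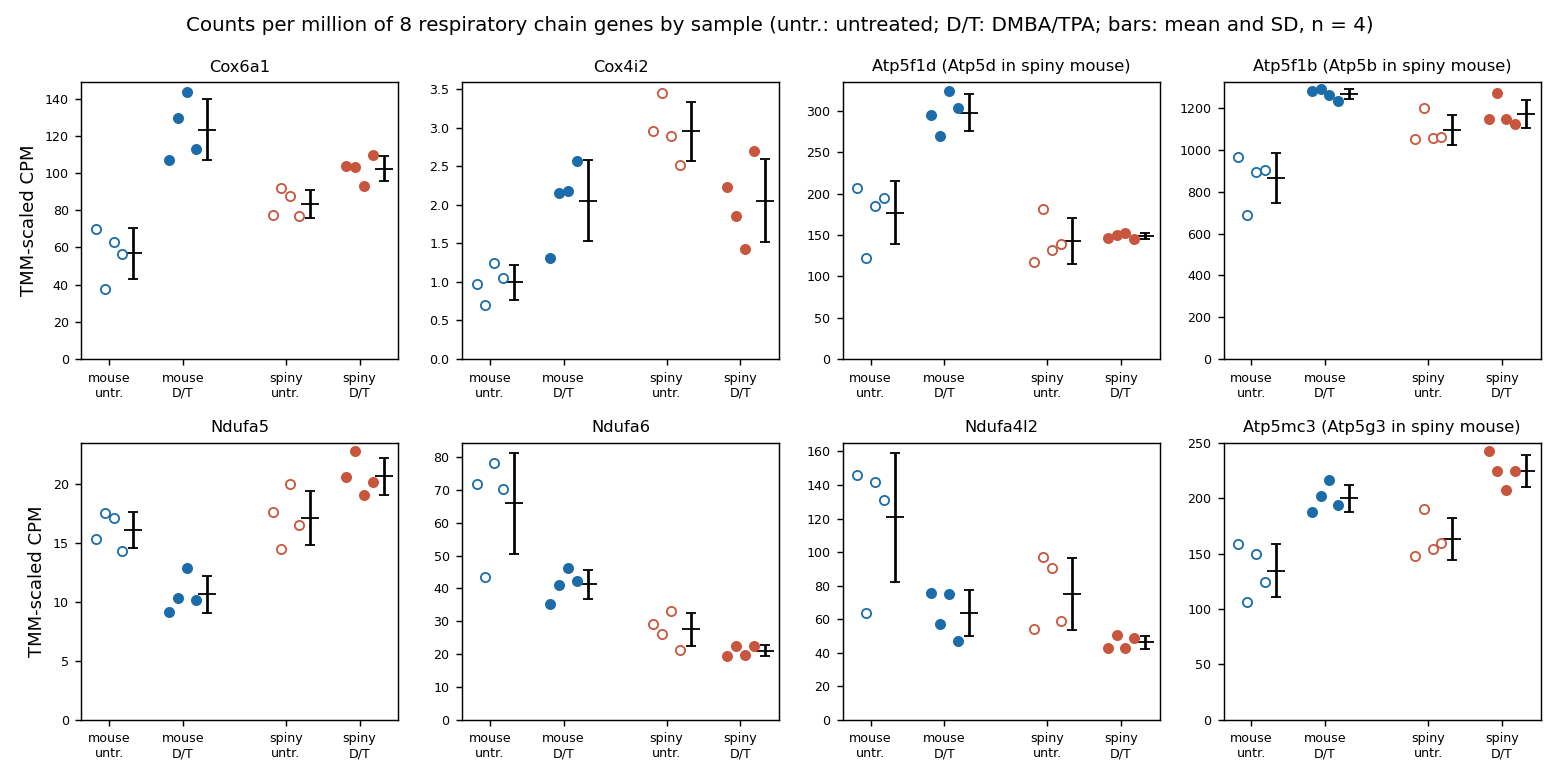
Level of 8 members in each sample, in TMM-scaled CPM on linear axes that start at 0; points are replicates 1 to 4 from left to right, open for untreated and filled for DMBA/TPA, and bars give the mean and SD (n = 4). Untreated mouse replicate 2 is the lowest of its group in 7 of the 8 panels, and Cox4i2 is higher in treated mouse skin (1.31 to 2.56 CPM) than in untreated mouse skin (0.702 to 1.25 CPM).

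The other mitochondrial genes did not move as one group. Their counts are read against the 61.2% of all genes called in mouse and the 55.1% called in spiny mouse. Of the 11 tested chain genes encoded in mitochondrial DNA in mouse, 10 fell, with a median log2 fold change of -1.05 and a sum of 15580 ± 3292 CPM untreated against 7525 ± 851 CPM treated (SD, n = 4 each), from poly(A) libraries. Other scalings gave 8 to 11 fallen and the removed length trend 5, none risen under any. The largest, mt-Co1, the catalytic core of complex IV, went from 9886 ± 2438 to 4767 ± 398 CPM (log2 -1.05, adjusted p = 0.00408). These genes were not analysed here in the spiny mouse. Genes of the mitochondrial ribosome, which translates them, rose for 29 of 77 tested and fell for none in mouse (37.7% called, median log2 0.31, all genes -0.15), with Mrps2 at log2 1.02. Among spiny mouse genes 39 of 78 rose and 3 fell (53.8% called, near the 55.1% of all genes, median 0.23, all genes -0.01), with Mrpl13 at log2 0.59. Of all spiny mouse genes 28.2% were higher and 26.9% lower. The mouse count was 15 higher and 4 lower with library size alone and 56 and 0 with the length trend removed. The spiny mouse count was 35 and 3 with library size alone, 30 and 3 by upper-quartile factors and 29 and 5 with that trend removed.

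Of the assembly factors of the chain 9 rose and 10 fell of 48 tested in mouse (39.6% called), and 7 rose and 3 fell of 48 in spiny mouse (20.8%). This list includes Cox7a2l, also a member, so its spiny mouse rise is counted in both. The mouse split depended on the setting: it was 12 and 7 with size factors, 3 and 17 by upper-quartile factors, 3 and 19 by library size alone and 18 and 4 with the length trend removed. Cox20, a chaperone of the complex IV subunit COX2, fell most in both (log2 -1.32 and -0.76). Of 26 regulators of mitochondrial biogenesis 8 rose and 9 fell in mouse (65.4% called) and 9 rose and 10 fell in spiny mouse (73.1%), the mouse share being near that of all genes. The largest falls were those of Prkaa2, a catalytic subunit of the AMP-activated kinase, in mouse (log2 -1.95) and of Esrrb in spiny mouse (log2 -1.42). Of the following genes, picked after their values were seen, Ppargc1a, the coactivator PGC-1alpha, fell in both (log2 -0.67 and -1.29), as did Esrrg (log2 -1.66 and -1.24) and Perm1 (log2 -0.94 and -1.11), which are abundant in muscle. Ppard and Hif1a, the oxygen-regulated transcription factor subunit, rose in both (log2 1.58 and 1.26 for Ppard, 1.31 and 1.15 for Hif1a), while Tfam, which packages and transcribes mitochondrial DNA, was called in neither (log2 -0.01 and -0.08). Of 26 genes of the tricarboxylic acid cycle and pyruvate dehydrogenase 4 rose and 10 fell in mouse (53.8% called), and none rose and 10 fell in spiny mouse (38.5%). The mouse count became 4 and 5 with DESeq2's size factors, 6 and 6 with the length trend removed, and 2 and 17 with upper-quartile factors or library size alone. Pdk4, the kinase that switches pyruvate dehydrogenase off, fell in mouse (log2 -2.41) and was not called in spiny mouse (log2 0.30). Of 22 genes of mitochondrial fatty acid oxidation and carriers 5 rose and 5 fell in mouse (45.5% called), and 3 rose and 10 fell in spiny mouse (59.1%). The mouse count was 5 and 10 with library size alone and 9 and 5 with the length trend removed. The ADP/ATP carriers showed the pattern of an isoform pair: Slc25a4, the form abundant in muscle, fell (log2 -1.33 in mouse and -0.62 in spiny mouse) and Slc25a5, the form of dividing cells, rose (log2 1.41 and 0.63).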

How the data were processed

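Poly(A) RNA from skin was sequenced from stranded mRNA libraries, 4 samples in each of 4 groups. The authors deposited a table of whole-number read-pair counts per gene for each species, made with featureCounts without a strand option and without counting multi-mapped reads, per the file headers. Trim Galore, HISAT2 and the build GRCm39 are named in the submitters' processing notes. Columns were assigned by species letter, number and treatment letters, and 1 untreated mouse column (replicate 2) carries an extra suffix. Mouse identifiers were named with a GRCm39 annotation (56236 of 56980). Because strand and multi-mapped reads were not used, members with near-identical pseudogene copies or overlapping antisense genes carry uncertain counts. The mouse and spiny mouse tables were scaled separately, so levels are compared within a species, apart from one rank correlation of FPKM between them.

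Each species was tested with edgeR 4.0.16 (R 4.3.3; filterByExpr, TMM scaling (trimmed mean of M-values), quasi-likelihood F test, Benjamini-Hochberg over all genes tested, threshold 0.05), and the species difference as an interaction over genes in both tables. SE is the absolute log2 fold change over the square root of F. The procedure was run on simulated data in which few genes changed, up or down at random. Far more genes were called in the real data, so that run cannot show which scaling is right. Alternatives were other scalings, the DESeq2 1.42.0 test, dropping the low-count filter or setting it at a mean of 10 counts, a gene length offset, the replicate number as a block and each replicate left out. Members named with every sample's value are the isoform pairs and, per complex and species, the highest by FPKM and the largest rise and fall among called members. Others, such as Ndufa6, Sdhb and Atp5if1, are further called members. Members and lists were chosen with earlier results of these data known. Promoters are from RefSeq (GRCm38.p6).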

Additional observations from a re-analysis of the deposited data

Results flagged for a closer look

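Over 122 groups of 4 values looked at, 7 held a sample far from the other 3, where chance gives about 1 in 20. In untreated mouse replicate 2, Cyc1 was 80.9 CPM (others 115.1 to 121.9) and the Cox8b share was 65.7% (others 47.6 to 49.0%). In untreated spiny mouse replicate 2, Atp5b was 1199 CPM (others 1054 to 1062) and Uqcr11 was 88.2 CPM (others 49.6 to 53.4). Atp5b was also high in treated spiny mouse replicate 2, at 1271 CPM (others 1124 to 1148). Cox7a2l was 124.5 CPM in treated spiny mouse replicate 3 (others 114.2 to 114.8), and Uqcrh was 53.6 CPM in untreated spiny mouse replicate 3 (others 47.9 to 48.2).

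The response to DMBA/TPA differed between the species, by the interaction test, for 7 members. The difference in log2 fold change, spiny mouse minus mouse, was -1.58 for Cox4i2, -0.83 for Cox6a1, -0.69 for Atp5f1d and -0.45 for Atp5f1b, and 0.86 for Ndufa5, 1.11 for Cox7a1 and 1.17 for Cox8b.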

How the results depend on the processing

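Members called as higher and lower moved with the setting, and the cause was not tested. For the species difference, larger and smaller mean a positive and a negative difference, spiny mouse minus mouse. In mouse they were 16 and 8 as reported, 27 higher with DESeq2's size factors or its test, 8 and 22 by upper-quartile factors, 6 and 25 by library size alone and 46 and 4 (50 in all) with the gene length offset. In spiny mouse they were 16 and 8, then 7 and 13 by upper-quartile factors, 10 higher by library size alone, 13 lower with the DESeq2 test and 3 and 34 (37 in all) with the length offset. For the species difference, 7 (3 larger and 4 smaller in spiny mouse) became 17 with size factors (14 smaller), 15 by upper-quartile factors (12 larger), 16 by library size alone (14 larger and 2 smaller), 11 with the DESeq2 test (5 larger), 16 without a filter (13 smaller) and 50 with the length offset (0 larger, 50 smaller). The median log2 fold change of all mouse genes tested was -0.1461 as reported. It was -0.3506 by upper-quartile factors, -0.3845 by library size alone and 0.03486 with the length offset. Without a filter it was -0.458, over 38169 genes rather than 19740. In spiny mouse it lay between -0.04842 and 0.0005608 under every setting.

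Leaving out 1 replicate gave 19 to 39 mouse calls (11 to 25 higher, 6 to 14 lower), 15 to 25 spiny mouse calls (7 to 18 higher, 5 to 12 lower) and 6 to 23 species differences (2 to 12 larger, 3 to 12 smaller). The most species differences, 23, came without untreated mouse replicate 2. Share differences ranged, in percentage points, from -34.6 to -23.8 for mouse Cox6a2, -32.7 to -26.2 for mouse Cox7a1, -42.6 to -36.5 for mouse Cox8b, -15.8 to -11.7 for spiny mouse Cox6a2, -26.2 to -20.9 for spiny mouse Cox7a1 and -19.0 to -15.2 for spiny mouse Cox8b.

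Deviations from group means of same-numbered samples correlated at -0.0492 to 0.0797 in mouse and -0.572 to -0.215 in spiny mouse. Their means were 0.00916 and -0.394, against -0.00212 and 0.132 for samples of different numbers. Because deviations were taken from each group's mean, the values for different numbers largely follow from those for the same numbers. No positive link by number was seen, but such correlations cannot exclude pairing or a shared batch. With a replicate block 10 members were higher in spiny mouse, the species difference of Atp5f1b (-0.46) was no longer called, and with the replicate block and length offset together 40 were higher and 3 lower in mouse (43 in all), 2 and 23 in spiny mouse, and 47 differed between species (0 larger, 47 smaller).

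The sign changed for members that had not been called, and for spiny mouse Uqcrh (-0.002137 under the length offset, -0.0009865 with the replicate block and offset). Mouse Uqcr11 was -0.1348 by upper-quartile factors, -0.1682 by library size alone and -0.04809 to 0.2321 with 1 replicate left out. Mouse Cycs was -0.04099 and -0.0744 under the same scalings. Mouse Sdhd was 0.005787 without a filter, 0.2565 under the length offset, 0.2879 with the replicate block and offset and -0.2135 to 0.006335 with 1 replicate left out. With 1 replicate left out, spiny mouse Cox6b1 ranged from -0.1104 to 0.02467 and Uqcr11 from -0.1646 to 0.1617. The species difference of Cox7a2 was 0.1052 by upper-quartile factors, 0.1634 by library size alone and -0.2321 to 0.06127 with 1 replicate left out.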
